A study of Mus musculus with 2 samples.

Results

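The constitutive proteasome genes of mouse T cells were taken from a pair of arrays by symbol: every probe set (the short probes that together read a transcript) that names exactly 1 gene and whose symbol starts with Psm, a letter from a to g and a digit, leaving out the inducible genes Psmb8, Psmb9, Psmb10, Psme1 and Psme2. The pattern found 98 probe sets of 45 genes, out of 34945 probe sets of 18193 genes. Of these 45 genes, 43 were grouped as proteasome subunits or their dedicated partners. The other 2, Psmc3ip (a partner in homologous recombination) and Psme3ip1 (a binding partner of Psme3), match the pattern but were not placed in a group and are counted apart. The array of control T cells was titled as CD4 T cells, and the second array held RNA of T cells after exposure to the retinal pigment epithelium. This epithelium (RPE) is the pigmented sheet that supports the photoreceptors. Both samples came from male mice, 6 weeks old, on a C57 BL/6 background, and the labels name no genetic change and no added agent. The tissue label of the exposed sample reads primary cultured RPE, although its title and source name T cells. The labels do not give the length of exposure or the number of animals pooled. With 1 array in each group there was no spread between samples and no test, so every difference below compares these 2 arrays and carries no p-value.

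The proteasome is the protease that degrades ubiquitin-tagged proteins in the cytosol and nucleus. Its barrel-shaped core has outer rings of alpha subunits, which gate the entrance, and inner rings of beta subunits, some of which cut peptide bonds. A regulatory particle caps the barrel: its base holds a ring of ATPases that unfold the substrate, and its lid removes the ubiquitin chain. T cells that are activated and divide depend on proteasomes for the turnover of cell-cycle regulators and of inhibitors of NF-kappaB, and interferon makes them swap the catalytic beta subunits for inducible ones.

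Proteasome transcripts had nearly the same signal on both arrays. Of the 45 genes, 43 lay above the floor (each array's median signal, 15.9 for control and 16 for exposed cells) on both arrays, and the testis form Psma8 and the thymus form Psmb11 lay under it on both. None of the 43 was at least 2-fold higher or lower, where 0.436% and 0.626% of all 11021 genes compared were. None reached a difference of 0.32 on the log2 scale (25% higher or 20% lower) either, where 10.9% of all genes compared were that much higher in exposed cells and 12.7% that much lower. Most proteasome genes are bright, and bright genes scattered less. Of the 1820 genes at 500 or more on both arrays, 3.19% were higher and 2.42% lower by 0.32 or more, and of the 32 proteasome genes at that level 0 were.

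The small differences were more often positive than negative. Over the 43 genes the median log2 difference, RPE-exposed minus control, was 0.042, with 29 positive and 14 negative. Without Psmc3ip and Psme3ip1 the median was 0.046, with 28 positive and 13 negative. A positive difference was found for 67.4% of the 43, beside 47.8% of the 9993 genes that passed the floor on both arrays. Bright genes of all kinds were also more often positive: of those at 500 or more, 59.2% were positive with a median of 0.027, beside 65.6% and 0.044 for the 32 proteasome genes at that level. The share of positive proteasome genes was thus close to that of other bright genes. The proteasome genes at 500 or more spread with an SD of 0.114 across genes, and all genes at that level with an SD of 0.174. Every one of the 43 lay within its like-level range, which is the central 95% of the differences among genes of similar signal (20 bins).

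**Figure D1:**
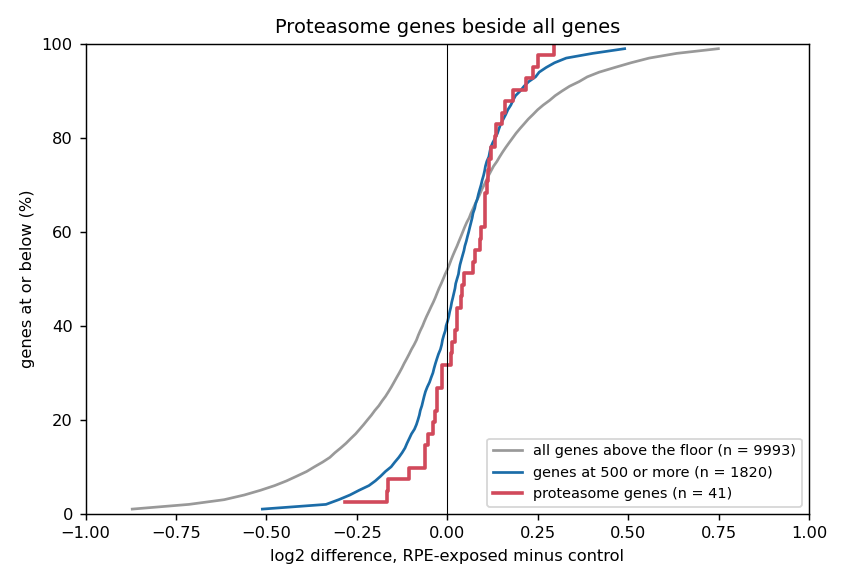
Cumulative share of genes (y axis, %) against the log2 difference, RPE-exposed minus control (x axis), for the 41 proteasome genes above the floor (red steps), the 1820 genes at 500 or more on both arrays (blue) and all 9993 genes over both floors (grey); each gene is 1 difference between 1 array per group. The red steps run from -0.28 to 0.29 and follow the blue line more closely than the wider grey one.

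The cell content of the samples was read from marker genes. All 8 T-cell markers lay above the floor, and their signals summed to 12410.1 for control and 12868.1 for exposed cells. Of the 8, 3 were higher and 5 lower in the exposed sample, with a median log2 difference of -0.023. The higher sum came mainly from Cd3d (3073.4 and 3505.9) and Cd3g (1520.2 and 1756.7). The 6 B-cell markers on the array summed to 1463.0 and 1021.9, all 6 lower in the exposed sample. The 10 macrophage and dendritic-cell markers summed to 2789.1 and 1973.9, with 7 above the floor on both arrays and 6 of those lower. Most of that sum came from H2-Aa (1437.6 and 1080.8), H2-Eb1 (707.7 and 457.1) and H2-Ab1 (481.7 and 312.8). The other markers of that list lay near or under the floor, among them Lyz1 (41.3 and 7.5), Lyz2 (29.4 and 19.5) and Cd14 (21.7 and 16.1). Csf1r was higher in exposed cells (29.1 and 31.4). Of 8 RPE markers, 7 were under the floor on both arrays and Mitf exceeded it on the control array alone (17.3 and 15.2). No marker of these lists was at 0. In such bulk RNA, fewer cells of a type and less RNA per cell cannot be told apart. The part of the B-cell marker and H2 gene differences in the proteasome values was not tested.

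The alpha subunits form the outer rings and the gate of the core. Their median difference was 0.009 over 7 genes above the floor, with 4 positive and 3 negative. Psma5 had the largest, going from 2187.9 in control to 2428.0 in exposed cells, 1.11-fold higher. A second bright probe set of Psma5 went from 1330.5 to 1483.3, so both gave nearly the same difference, 0.15 and 0.16. Psma2 had signals of 2490.3 and 2624.0. Psma7 had 1931.0 and 1993.2, and its second probe set 1468.3 and 1562.4, both slightly higher in exposed cells. The remaining alpha subunits moved by less than 0.05 on the log2 scale on their brightest probe sets. Psma3, whose tail helps to close the gate, had signals of 2763.7 and 2780.5. Psma1 had 2179.1 and 2155.7, and Psma6 had 2446.7 and 2399.4. For each of these genes the probe sets differed in sign. The dim probe set of Psma3 had 65.8 and 58.5. Dim probe sets of Psma1 went both ways (31.5 and 39.2, 63.2 and 54.4). So did those of Psma6 (77.7 and 108.0, 24.1 and 20.4). Psma4 was the lowest of the group, at 1929.8 and 1875.7 (-0.041). Psma8, an alpha subunit of male germ cells, had signals of 1.2 and 7.2, both under the floor, so no fold is given.

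The beta subunits form the inner rings, and those encoded by Psmb5, Psmb6 and Psmb7 carry the active sites. The group's median difference was 0.090 over 7 genes, 6 of them positive. Psmb5, which cuts after hydrophobic residues, had signals of 1372.9 and 1476.4, 1.08-fold higher in exposed cells. Psmb6, which cuts after acidic residues, had 1177.1 and 1211.5. Psmb7, which cuts after basic residues, had 2921.6 and 2975.6, so all 3 catalytic genes differed by no more than 0.10 on the log2 scale. Among the structural beta subunits, Psmb3 had the largest difference of the core. Its probe sets went from 1260.3 to 1428.0 (0.18) and from 1138.4 to 1346.8 (0.24), a mean of 0.21 ± 0.044 (SD, 2 probe sets, which are not replicates of cells). Psmb2 had signals of 1486.9 and 1632.1. Psmb4 had 3087.0 and 3286.4, with a second probe set at 1655.2 and 1684.6. Psmb1 was the only beta subunit with a negative difference, at 1856.5 and 1812.3, and its dimmer probe sets went the other way: 24.7 and 32.5 on one, and 7.3 and 40.3 on the other, which lay under the floor in control cells. Psmb11, the beta subunit of the thymic cortex, had signals of 1.1 and 1.0, under the floor on both arrays.

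**Figure D2:**
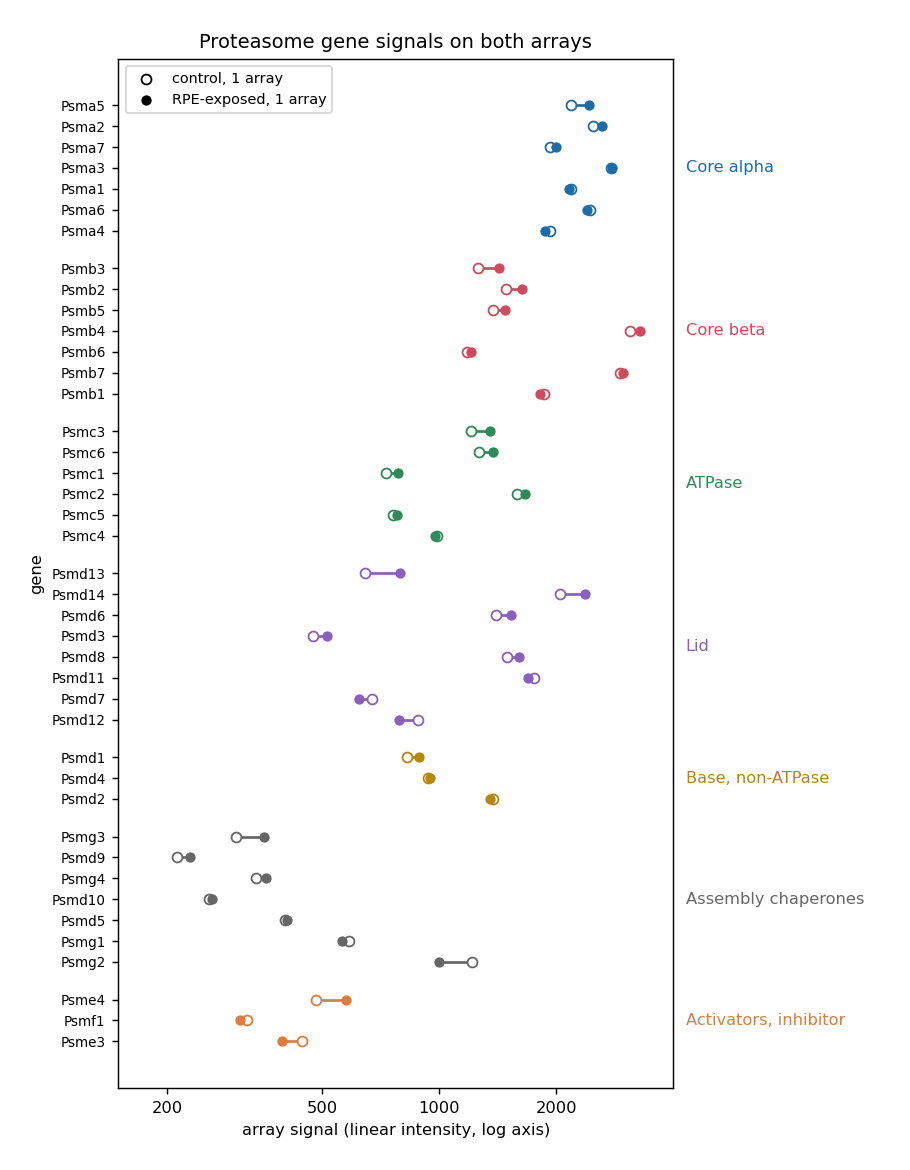
Signal of each proteasome gene above the floor (x axis, linear intensity on a log axis) on the control array (open circles) and the RPE-exposed array (filled circles), 1 array each, by group; a line joins the values of a gene. The circles of most genes touch, and the widest gaps are those of Psmd13 (645.8 and 792.0) and Psmg2 (1214.9 and 998.4).

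The ATPases form the ring that pulls substrates into the core. Their median difference was 0.089 over 6 genes, 5 of them positive. Psmc3 had signals of 1209.5 and 1351.4, 1.12-fold higher and the largest of the ring. Psmc6 had 1269.0 and 1374.6 on its brightest probe set, but 348.4 and 326.7 on the next and 61.6 and 82.6 on the dimmest, so its probe sets differed in sign. Psmc1 had 729.8 and 786.7. The other ATPase genes lay closer to no difference on their brightest probe sets. Psmc2 had signals of 1587.3 and 1666.3 (0.070) on that probe set. A second bright probe set of Psmc2 gave more, 1539.3 and 1707.7 (0.15), and a dim one had 30.1 and 38.3. Psmc5 had 759.7 and 779.6. Psmc4 had 988.0 and 977.2 on one probe set and 950.4 and 975.8 on the other, a difference of no settled sign.

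The lid removes the ubiquitin chain, and the SD across its 8 genes was 0.160. The SD was 0.072 across the 14 core genes, 0.063 across the 6 ATPases and 0.066 across the 3 other base genes. It was 0.163 across the 7 assembly chaperones and 0.218 across the 3 activators and inhibitor. These groups differ in signal, with a control median of 2055.05 for the core, 1141.25 for the lid and 1098.75 for the ATPases. The part of signal level in these SDs was not tested. The median difference of the lid genes was 0.113, with 5 positive and 3 negative. Psmd13, a scaffold subunit of the lid, had the largest difference of all proteasome genes, at 645.8 in control and 792.0 in exposed cells, 1.23-fold higher (like-level range -0.41 to 0.49). All 4 of its probe sets were higher in exposed cells, with a mean of 0.18 ± 0.090 (SD, 4 probe sets), and the second brightest gave only 386.7 and 407.2. Psmd14, the enzyme that removes the chain, had signals of 2044.6 and 2378.0, 1.16-fold higher, on 1 probe set. Psmd6, another scaffold subunit, had 1397.6 and 1531.7, with its second probe set also higher at 1094.4 and 1158.1. Psmd3 had signals of 473.8 and 515.0. Psmd8 had 1492.1 and 1604.7. Lower signals in exposed cells were found for 3 lid genes. Psmd12, a scaffold subunit, had 884.9 and 790.3, 1.12-fold lower on 1 probe set. Psmd7, the inactive partner of Psmd14, had 671.0 and 623.9, with a dim second probe set at 50.9 and 38.2. Psmd11 had 1752.5 and 1690.1 on its brightest probe set, whereas those at 465.4 and 497.8, 369.6 and 391.1, and 328.9 and 347.7 were slightly higher in exposed cells.

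The base also holds subunits without ATPase activity. Psmd1, a scaffold of the base, had signals of 829.3 and 890.8. Psmd2, which docks ubiquitin-like proteins, had 1374.6 and 1348.4. Psmd4, a receptor for ubiquitin chains, had 935.7 and 949.8 on its brightest probe set and 910.1 and 885.3 on the next. The log2 differences of these bright probe sets ran from -0.040 to 0.10. The dimmest probe set of Psmd4, at 41.5 and 21.9, gave the most negative difference of any proteasome probe set above the floor, -0.92.

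Assembly chaperones build the rings and then leave. Their median difference was 0.026 over 7 genes, and they held both the lowest gene of all and one of the 3 highest. Psmg2, which with Psmg1 guides assembly of the alpha ring, had signals of 1214.9 in control and 998.4 in exposed cells, 1.22-fold lower. All 3 of its probe sets were lower: the second went from 815.0 to 600.7 (-0.44) and the dimmest from 26.7 to 21.3 (-0.33), a mean of -0.35 ± 0.081 (SD, 3 probe sets). The second was the only proteasome probe set at 500 or more that differed by 0.32 or more. Its partner Psmg1 had signals of 588.4 and 563.5, a difference of -0.062. The chaperone pair that acts next on the alpha ring was on the positive side. Psmg3 had 300.6 and 354.4, 1.18-fold higher, and Psmg4 had 338.0 and 360.2. The chaperones of the ATPase ring were also positive on their brightest probe sets. Psmd9 had 212.8 and 229.8 (0.11), but its probe sets differed in sign. Psmd10 had 256.1 and 260.7 (0.026), and Psmd5 had 402.9 and 406.2 (0.012), both close to no difference. Pomp, which completes the beta ring and lies outside the symbol pattern, had signals of 2129.1 and 2449.4, 1.15-fold higher.

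Other regulators bind the ends of the core in place of the regulatory particle, and these pointed in opposite directions. Psme4, an activator of the nucleus that opens the gate without ATP, had signals of 484.3 in control and 576.3 in exposed cells, 1.19-fold higher. All 3 of its probe sets over both floors were higher (0.21 ± 0.049, mean ± SD), the others going from 457.6 to 510.6 and from 236.6 to 278.1. Psme3, a nuclear activator that degrades some proteins without ubiquitin, had 445.0 and 396.1, 1.12-fold lower, with a second probe set at 223.8 and 215.2. Psmf1, named for inhibition of the core, had 320.8 and 307.4 on its brightest probe set, but its other 3 probe sets above the floor were higher in exposed cells, among them 78.9 and 85.9. The 2 genes counted apart had small differences on their brightest probe sets, Psmc3ip at 136.6 and 137.4 and Psme3ip1 at 366.5 and 349.1. A second probe set of Psmc3ip, of similar signal, had 127.6 and 113.0 (-0.175), so its probe sets differed in sign.

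**Figure D3:**
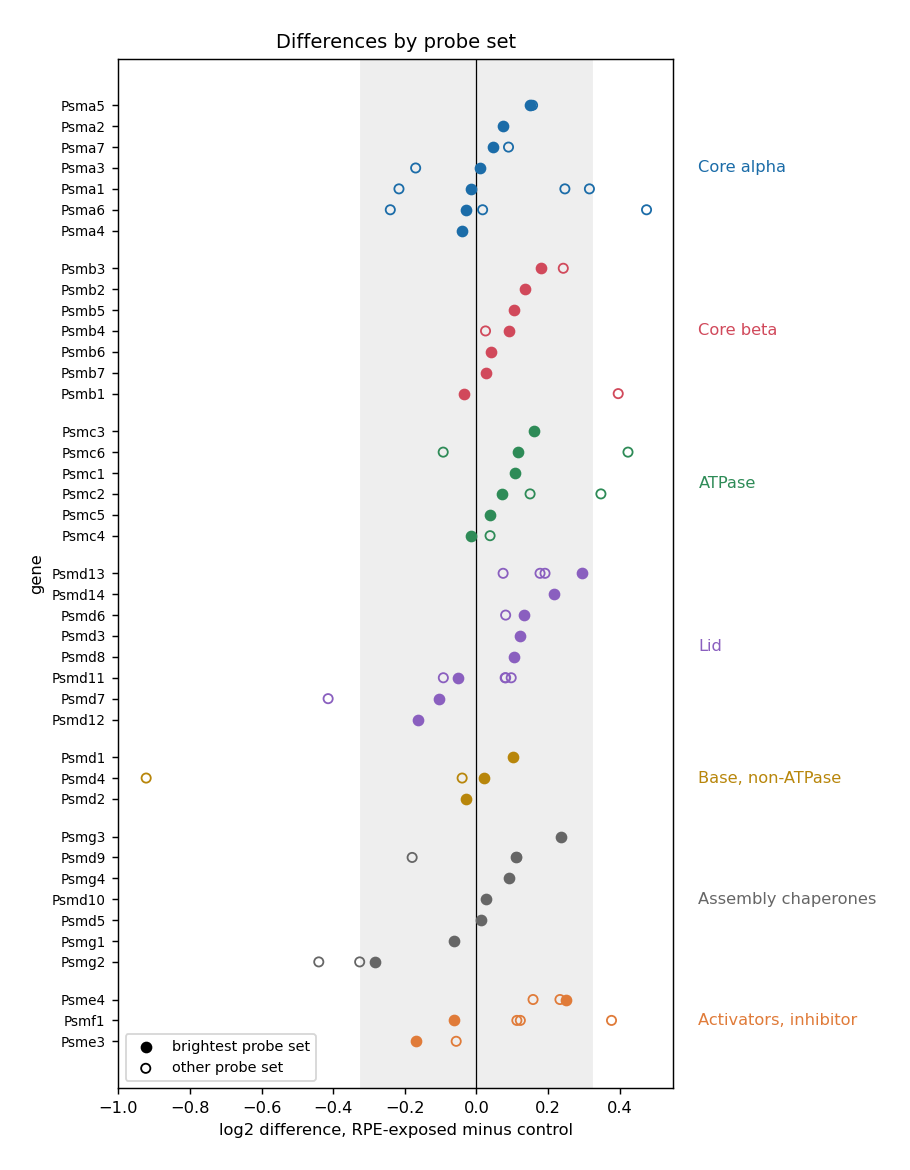
Log2 difference, RPE-exposed minus control (x axis), of every proteasome probe set over both floors, by gene and group; filled circles are each gene's brightest probe set, open circles its other probe sets, and the grey band covers differences under 0.32. All 41 filled circles lie in the band, from -0.28 (Psmg2) to 0.29 (Psmd13), and 9 open circles lie outside it.

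Probe sets of a gene were compared on these same arrays, which shows probe scatter and not the variation between samples. Where a proteasome gene had several probe sets at 500 or more, which was so for 10 genes, their log2 differences had a pooled SD of 0.051, against 0.105 over 559 genes of all kinds at that level. In 7 of the 10 the bright probe sets had the same sign: Psma5, Psma7, Psmb3, Psmb4, Psmc2, Psmd6 and Psmg2. Those of Psma6, Psmc4 and Psmd4 differed in sign and lay between -0.040 and 0.038. Across all levels, 22 genes of the 45 had more than 1 probe set over both floors, and these differed in sign in 11 of the 22.

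Dim probe sets carried nearly all of the larger differences. Of the 79 probe sets of proteasome subunits and partners that passed both floors, 9 differed by 0.32 or more, 5 higher and 4 lower in exposed cells. Of those 9, 8 had a mean signal under 100, where 20 probe sets ran from -0.92 to 0.47. The 16 probe sets between 100 and 500 ran from -0.17 to 0.24. The 43 at 500 or more ran from -0.44 to 0.29, with 30 positive and 13 negative.

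**Figure D4:**
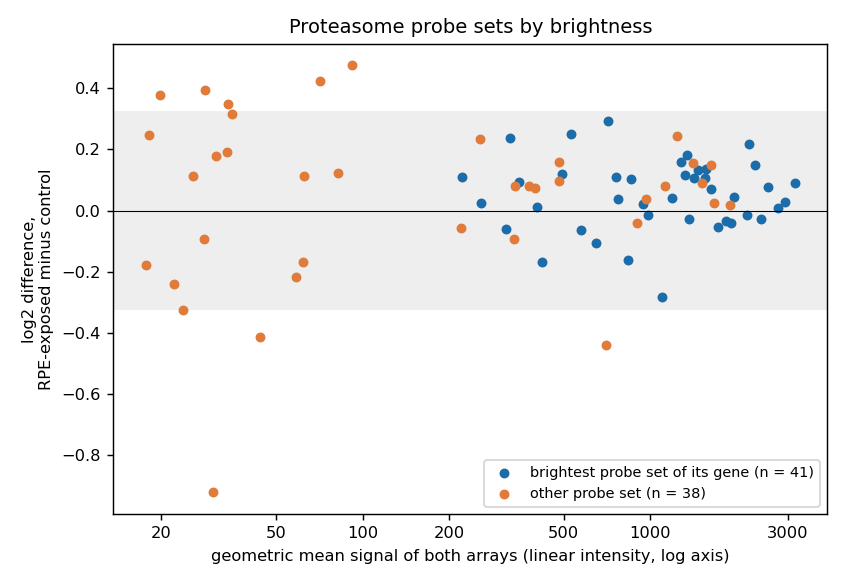
Log2 difference, RPE-exposed minus control (y axis), against the geometric mean of both signals (x axis, linear intensity on a log axis) for the 79 proteasome probe sets over both floors, with the 41 brightest of their gene in blue and the 38 others in orange; the grey band covers differences under 0.32. Points under 100 scatter from -0.92 to 0.47, and among those at 500 or more only 1, of Psmg2, leaves the band.

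Promoter sequence was set beside these values because the subunit genes are known to be induced together by Nfe2l1, a factor that binds antioxidant response elements. RefSeq (GRCm38.p6) gave the 250 bases before the start of 35 of the 43 genes, in 37 windows. On either strand, 4 motifs were searched: TGACNNNGC, the core of the antioxidant response element; CCAAT, the box of NF-Y; CCGGAAG, a site type of ETS factors; and GGGCGG, the GC box. The antioxidant core was in 5 windows (13.5%), beside 10.2% of all 32851 windows of the same length, and CCAAT in 13 (35.1%), beside 33.8%. CCGGAAG was in 13 windows (35.1%), beside 6.91% of all windows, and GGGCGG in 19 (51.4%), beside 32.7%. The 5 genes with the antioxidant core were Psmb5, Psmb6, Psmc6, Psmd9 and Psmd12, with a median difference of 0.105, against 0.046 for the 29 genes without it that lay above the floor. The 12 genes with CCGGAAG had a median of -0.003, against 0.083 for 22 without it. For CCAAT the median was 0.036 over 12 genes with it, against 0.091 for 22 without it. For GGGCGG it was 0.042 over 19 genes, against 0.09 for 15 without it. The antioxidant core was thus the only motif of the 4 whose genes had the higher median, and it was found in the fewest genes. A match is a description of letters and not a bound site.

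The windows below belong to the catalytic gene Psmb5, the lid genes at both ends of their range (Psmd13, Psmd14 and Psmd12), and the activators Psme4 and Psme3, which pointed in opposite directions. Each is printed 5′ to 3′ along the gene's strand and ends at the base before the start, with matches to the 4 motifs in capitals. The motifs overlapped only in Psme4, where a GC box runs into CCGGAAG. Psmb5 (chr14:54617996-54618245, minus strand) has an antioxidant core that ends 39 bases before the start. Psmd13 (chr7:140882144-140882393, plus strand) has no match, Psmd14 (chr2:61711444-61711693, plus strand) has 1 CCAAT and 3 GC boxes, and Psmd12 (chr11:107479278-107479527, plus strand) has an antioxidant core, 2 GC boxes and 1 CCGGAAG. Psme4 (chr11:30771525-30771774, plus strand) and Psme3 (chr11:101315963-101316212, plus strand) each have 1 CCGGAAG, and Psme3 also has a CCAAT.
Psmb5: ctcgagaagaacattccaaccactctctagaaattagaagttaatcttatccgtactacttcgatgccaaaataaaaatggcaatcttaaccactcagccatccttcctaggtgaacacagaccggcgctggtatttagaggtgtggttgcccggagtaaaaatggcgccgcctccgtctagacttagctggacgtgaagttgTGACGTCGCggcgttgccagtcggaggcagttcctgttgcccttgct
Psmd13: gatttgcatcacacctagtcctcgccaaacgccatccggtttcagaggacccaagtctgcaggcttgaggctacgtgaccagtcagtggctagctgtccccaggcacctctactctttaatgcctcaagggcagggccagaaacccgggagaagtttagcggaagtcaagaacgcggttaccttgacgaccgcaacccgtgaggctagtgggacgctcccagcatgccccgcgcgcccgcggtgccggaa
Psmd14: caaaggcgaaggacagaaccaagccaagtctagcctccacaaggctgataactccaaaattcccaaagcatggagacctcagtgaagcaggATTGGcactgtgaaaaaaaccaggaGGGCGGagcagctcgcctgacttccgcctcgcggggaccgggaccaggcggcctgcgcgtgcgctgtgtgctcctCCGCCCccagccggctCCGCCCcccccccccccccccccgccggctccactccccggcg
Psmd12: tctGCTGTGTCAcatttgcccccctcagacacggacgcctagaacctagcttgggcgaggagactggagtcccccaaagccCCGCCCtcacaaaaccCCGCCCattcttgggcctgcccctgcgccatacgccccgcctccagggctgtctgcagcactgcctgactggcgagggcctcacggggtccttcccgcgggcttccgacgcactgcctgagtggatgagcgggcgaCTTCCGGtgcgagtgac
Psme4: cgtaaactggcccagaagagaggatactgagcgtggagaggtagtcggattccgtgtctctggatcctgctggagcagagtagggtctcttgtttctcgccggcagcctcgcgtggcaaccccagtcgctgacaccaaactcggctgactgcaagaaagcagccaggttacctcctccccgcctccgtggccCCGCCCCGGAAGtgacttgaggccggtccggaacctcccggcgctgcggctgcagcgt
Psme3: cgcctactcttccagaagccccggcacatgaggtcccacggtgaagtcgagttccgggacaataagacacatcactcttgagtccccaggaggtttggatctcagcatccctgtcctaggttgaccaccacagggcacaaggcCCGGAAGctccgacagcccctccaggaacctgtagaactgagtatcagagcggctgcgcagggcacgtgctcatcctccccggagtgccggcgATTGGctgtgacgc

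Psmd13, the lid gene with the highest difference, had none of the 4 motifs in its window, whereas Psmd14, the next highest, had CCAAT and GC boxes. Psmd12, the lid gene with the lowest difference, had 3 of the 4 motifs. These genes were picked by their differences, and a link between motifs and differences was not tested. Psmb3, the highest gene of the core, held 2 CCAAT motifs and none of the others.

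The inducible counterparts that the symbol rule leaves out were read on the same arrays. Psmb8, which replaces Psmb5 in immunoproteasomes, had signals of 1971.7 and 2284.0, and its dim second probe set 78.7 and 66.8. Psmb9, which replaces Psmb6, had 1509.3 and 1518.7. Psmb10, which replaces Psmb7, had 765.2 and 932.8, 1.22-fold higher. Set against its constitutive partner, the difference was larger for Psmb8 by 0.107 and for Psmb10 by 0.259 on the log2 scale, and smaller for Psmb9 (-0.033). These 3 gaps have no replicate behind them, and 3 pairs were compared. Psme1, a subunit of the interferon-induced activator, had 2603.8 and 2584.7. Psme2 is not analysed here, since its probe set names several genes.

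Other ubiquitin-proteasome genes, with names outside the symbol pattern, also had a median close to no difference. Of a list of 30 such genes 21 were on the array with a name of their own, all above the floor, with a median of 0.023, 12 positive and 9 negative. They ran from -0.398 to 0.566, with an SD of 0.212 across genes, beside 0.116 across the 43 members above the floor. By 0.32 or more, 1 of the 21 was higher and 1 lower. Of all 11021 genes compared, 10.9% were that much higher and 12.7% that much lower. Ngly1, the glycanase that activates Nfe2l1, had signals of 391.7 and 580.0, 1.48-fold higher and above its like-level range of -0.42 to 0.44. Nfe2l1 itself, the transcription factor of proteasome recovery, had 118.9 and 90.2, 1.32-fold lower, inside a like-level range that ran from -0.68 to 0.52. The related factor Nfe2l2 had 297.4 and 303.9. Those 2 largest differences of the list rest on 1 probe set each. Of the deubiquitinases on the regulatory particle, Usp14 had 758.9 and 759.0 and Uchl5 had 1107.7 and 1075.8. Sem1, a small lid subunit with a name outside the pattern, had 1147.9 and 1214.8. Adrm1 and 8 more genes of the list are not analysed here.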

How the data were processed

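RNA of 1 control and 1 RPE-exposed T-cell sample was hybridised to 1-colour Affymetrix arrays. The deposited values are linear intensity signals per probe set, with a mean near 100 on each array after trimming 2% from both ends, so the authors had already scaled them; the summarization software is not given in the sources used here. No further scaling was applied. Gene names came from GEO's platform annotation: 34945 probe sets named 1 gene, 932 several, and 9160 none here; all 45 symbols matched RefSeq (GRCm38.p6).

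Signals under each array's median (15.9 and 16) were set to it, and each gene was read from its brightest probe set (mean log2 over both arrays). Log2 differences, RPE-exposed minus control, were computed in pandas 2.3.3 and numpy 2.4.6 under Python 3.11.15 and drawn with matplotlib 3.10.9; the steps were tested on simulated data. Like-level ranges used 20 bins of signal. With 1 array per group the number of arrays limits the precision, and genes were counted at a 2-fold difference and at 0.32 on the log2 scale. The members and lists were chosen with earlier results of these data known. Named genes are all members, the inducible counterparts, and from the other list those past 0.32 plus Pomp, Adrm1, Nfe2l1, Nfe2l2, Usp14 and Uchl5; Sem1 was added as a lid subunit after its values were seen. In all, 8 alternative settings were tried.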

Additional observations from a re-analysis of the deposited data

How the results depend on the processing

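The median over all proteasome genes stayed between 0.032 and 0.082 over the 8 alternatives, and the genes with a positive difference numbered 25 to 32. The count of genes past 0.32 was 0 in the main setting, 1 with no floor (Psma8, under the floor otherwise, which was also the 1 gene past 2-fold there), 2 with averaged probe sets (Psmb1 at 0.57 and Psmg2) and 3 with only probe sets that have no x, s or a in their suffix (Psmb1 at 0.40, Psmc6 at 0.42 and Psmg2), which leaves 37 genes. With averaged probe sets the alpha subunits had a median of 0.068, the activators and inhibitor 0.138 and the inducible genes -0.001, and with the suffixed probe sets left out the inducible genes had 0.009. Of 338 values of single genes under an alternative, 18 changed sign, in 11 genes. The other medians moved by less than 0.051, the pooled SD between bright probe sets of a gene. That SD is scatter within genes and not the error of a group median. Some small medians changed sign. The alpha subunits had -0.029 with quantile normalization. With averaged probe sets, the base genes without ATPase activity had -0.009 and the other ubiquitin-proteasome genes -0.022. No replicate could be left out, with 1 array per group, and dim probe sets limit what can be read.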

Other observations

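A few proteasome probe sets near or under the floor gave large ratios that the bright probe set of the same gene did not share. The dimmest probe set of Psmb1 had signals of 7.3 and 40.3, while the brightest had 1856.5 and 1812.3. The dim probe set of Psmg3 had 14.7 and 3.8, beside 300.6 and 354.4 on the bright one. That of Psmc1 had 6.2 and 3.0, beside 729.8 and 786.7.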
